A study of Homo sapiens with 13 samples.

Results

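The genes described here were *AMBN*, *ENAM*, *AMTN* and *ODAM*, 4 of the 56831 genes quantified in 2 small cell lung cancer (SCLC) cell lines. They were taken by symbol as enamel matrix genes of 1 stretch of chromosome 4, and the set was built around *AMBN*, which was picked for its very high level in treated H146 cells. All values of *AMBN* in H146 are therefore a description and carry no test. The other members were chosen by name and place, but with earlier results of these data known.

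Enamel is laid down by ameloblasts, epithelial cells that secrete a protein matrix and then remove it as the mineral grows. Ameloblastin (*AMBN*) and enamelin (*ENAM*) are structural proteins of the forming matrix, and amelotin (*AMTN*) and the odontogenic ameloblast-associated protein (*ODAM*) are secreted later, at the interface of the ameloblast with the maturing enamel. The genes belong to the secretory calcium-binding phosphoprotein family, which arose by tandem duplication and also holds caseins and salivary proteins, and mutations of *AMBN* and *ENAM* cause amelogenesis imperfecta.

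Expression was measured by RNA-seq in H82 and H146, established human SCLC lines with neuroendocrine features, both labelled as wild type and grown in serum-containing medium. Treated cells had received FHD-286, an inhibitor of both SMARCA2 and SMARCA4, the ATPases that drive SWI/SNF chromatin remodelling, for 14 days at 100 nM with the drug renewed at intervals. Untreated cells of the same line were the comparison, which asked how blocking these ATPases changes expression. There were 3 untreated and 3 treated libraries of H82 and 3 untreated and 4 treated libraries of H146. Nothing in the labels says whether libraries of a group came from separate cultures, so p-values measure the spread between these libraries, which may be technical, and each line is 1 model of its tumour type.

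Values are TPM (a level per transcript length that sums to the same total in each library), so levels of different genes can be set side by side. TPM keeps no read depth, and the number of reads behind a low value is not known. In H82, 21227 to 21772 genes reached 1 TPM without the drug and 15554 to 16633 with it. In H146 the numbers were 17476 to 17965 and 18778 to 19309. The median gene of all tested moved by -0.56 (log2) in H82 and 0.25 in H146, so changes are read against that shift. The 7 neuroendocrine markers summed in H82 to 1167 to 1265 TPM without and 1174 to 1492 TPM with the drug, although 4 of them were lower, such as *SYP* (from 202 to 46.8 TPM), and 2 higher, such as *UCHL1* (from 412 to 896 TPM). In H146 their sum was 3627 to 4099 TPM without and 2690 to 2886 TPM with the drug, and 3 of 6 tested were lower and none higher. The 6 fibroblast markers summed in H82 to 1.70 to 2.50 TPM without and 7.98 to 35.3 TPM with the drug, and in H146 to 6.78 to 8.78 and 17.1 to 32.7 TPM. The sums of 6 blood cell markers were 4.32 to 7.90 and 2.45 to 4.46 TPM in H82, and 6.82 to 10.1 and 9.72 to 20.2 TPM in H146. *COL3A1* was at 0 in untreated H82, *CD3E* in all H82 libraries and *HBB* in treated H146, and the part of these markers in the results was not tested.

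The 4 genes lie on the forward strand of chromosome 4 in the order *ODAM*, *AMTN*, *AMBN*, *ENAM* (hg38, GENCODE release 44). *ODAM* (ENSG00000109205.17) spans chr4:70195725-70204576 with 12 exons, and *AMTN* (ENSG00000187689.10) spans chr4:70518569-70532743 with 9 exons. *AMBN* (ENSG00000178522.15) spans chr4:70592256-70607288 with 13 exons, and *ENAM* (ENSG00000132464.13) spans chr4:70628744-70646824 with 9 exons. *AMBN* and *ENAM* are close neighbours, 21455 bases apart, and 59512 bases separate *AMTN* from *AMBN*. *ODAM* is farther away, 313992 bases before *AMTN*, with 7 protein-coding genes between them. A long noncoding RNA gene on the same strand, ENSG00000286848, overlaps *ENAM* in release 44, and whether it was in release 28, with which the authors counted, was not examined.

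The promoter of *AMBN* is shown because this gene carries the largest values of the group. It runs from 250 bases before the start to 50 bases after it (RefSeq, GRCh38.p14, forward strand, chr4:70592006-70592305), and capitals mark CCAAT or its reverse complement ATTGG, the letters of the CCAAT box, which the factor NF-Y is known to bind.

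AMBN promoter: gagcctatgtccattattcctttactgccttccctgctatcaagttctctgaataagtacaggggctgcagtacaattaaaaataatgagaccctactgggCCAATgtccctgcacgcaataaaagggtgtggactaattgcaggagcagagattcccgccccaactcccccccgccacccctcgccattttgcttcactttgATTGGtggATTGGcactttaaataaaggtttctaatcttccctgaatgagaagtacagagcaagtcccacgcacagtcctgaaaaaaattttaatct

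The 4 members share one feature close to the start, shown here in 41 bases of each promoter on the forward strand of GRCh38.p14, with CCAAT or ATTGG in capitals.
ODAM (chr4:70195651-70195691): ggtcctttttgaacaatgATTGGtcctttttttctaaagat
AMTN (chr4:70518487-70518527): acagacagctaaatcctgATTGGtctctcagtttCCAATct
AMBN (chr4:70592191-70592231): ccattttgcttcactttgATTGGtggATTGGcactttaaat
ENAM (chr4:70628655-70628695): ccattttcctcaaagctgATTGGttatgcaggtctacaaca

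In each of them ATTGG stood within the longer run TGATTGGT, which was noticed after the sequences were read. The ATTGG began 47 bases before the start in *AMBN*, 56 in *ODAM*, 64 in *AMTN* and 71 in *ENAM*. Of 35116 promoters of the same length, 34.6% held CCAAT or ATTGG on either strand and 1.87% held TGATTGGT or ACCAATCA. ATTGG beginning 47 to 71 bases before the start was held by 3.75%. That range was set by the positions in the 4 members themselves, so they fall in it by construction and the share is no test. *AMBN* and *AMTN* each held 3 copies of CCAAT or ATTGG. A second promoter listed for *ENAM* (chr4:70637461-70637760) held none, which says only that these letters are not in that window. The members arose by duplication and are not independent sequences, and a match of letters is a description, not a binding site.

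The *AMBN* promoter also held 2 copies of TAATTG or CAATTA, the core of many homeodomain sites, 115 and 177 bases before the start, letters that 7.38% of promoters hold. It held none of TATAAA (11.5% of promoters, either strand), TGTGGT (RUNX core, 13.1%), CANNTG (E-box, 68.7%) or TGANTCA (AP-1, 7.71%), and *ODAM* held TGANTCA 83 bases before the start. GC content was 45.7% in *AMBN*, 35.7% in *ODAM*, 33.7% in *AMTN* and 35.7% at the first start of *ENAM*, below the median of 58.7% over all promoters. *AMBN* had 5 CpG dinucleotides in this window, against a median of 14.

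*AMBN* was expressed in H146 before treatment and rose to the level of cytoskeletal and translation genes under FHD-286. The untreated H146 libraries had 154, 171 and 135 TPM, and the treated libraries had 3250, 4626, 3262 and 3272 TPM. The lowest treated library was far above the highest untreated one, and 3 of the 4 treated libraries lay within a narrow range, with replicate 2 higher. Replicates 3 and 4, both in that range, were also close over other abundant genes. Whether they are 1 library cannot be tested. The means were 154 ± 18.1 TPM (SD, n = 3) and 3602 ± 682 TPM (SD, n = 4), a 23.5-fold ratio. On the log2(TPM + 1) scale the difference was 4.53 ± 0.16 (SE, limma). In bulk RNA, more transcripts per cell and more cells with the transcript cannot be told apart, here or below.

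In rank by level, *AMBN* moved from place 938 to 1213 in the untreated H146 libraries to place 16 to 28 in the treated ones. By mean TPM it was the gene at place 20 of treated H146, between *EEF2*, a translation elongation factor gene, at 4134 TPM and the mitochondrial gene *MT-ND2* at 3590 TPM. The transcript made up 0.0135% to 0.0171% of all TPM in the untreated libraries and 0.325% to 0.463% in the treated ones. Its ratio to the actin gene *ACTB* in the same library was 0.0333, 0.0389 and 0.0304 without the drug and 1.003, 1.455, 1.043 and 0.985 with it. In treated H146 the 2 transcripts were thus present at like levels per length.

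**Figure D1:**
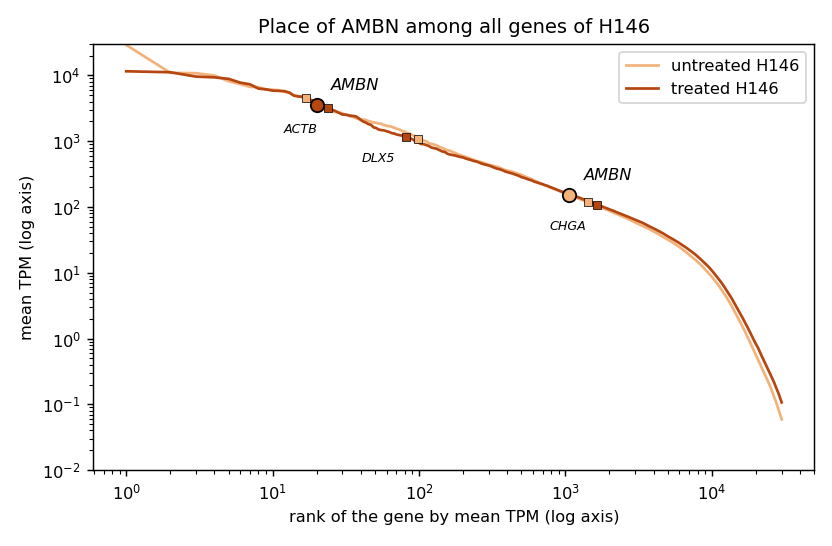
Mean TPM of every gene in H146 against its rank, both on log axes, for untreated (light) and treated (dark) libraries. Circles mark *AMBN*, at place 1062 untreated and place 20 treated, and squares mark *ACTB*, *DLX5* and *CHGA*, whose places differ far less between the groups.

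Among all genes tested in H146, *AMBN* had the 5th largest log2 difference, just below *TXNIP* (4.64) and *FABP7* (4.61) and just above *TLE4* (4.33) and *PCDH17* (4.29). Counted in TPM, its rise of 3449 was the 2nd largest of all genes. Scaling the libraries by the median of ratios, which removes the shift of the median gene, gave 168, 188 and 163 in the untreated libraries and 3009, 4393, 2802 and 2882 in the treated ones, a log2 difference of 4.21. Leaving out any 1 library gave 4.41 to 4.61.

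In H82, *AMBN* was at the edge of detection and went the other way. The untreated H82 libraries had 1.34, 0.775 and 1.83 TPM and the treated ones 0.416, 0.138 and 0.317 TPM. The groups did not overlap, as for 46.6% of the genes above 0 TPM in any H82 library. The difference of mean log2(TPM + 1) was -0.82, with p = 0.1 in a two-sided exact permutation test, the smallest that 3 against 3 libraries allow. In the limma fit of all genes with no filter on low values the adjusted p was 0.0452, and 25.9% of genes were called lower there. The mean fell by 2.18 on the log2 scale when nothing was added to the TPM, from 1.32 ± 0.530 TPM to 0.291 ± 0.141 TPM (SD, n = 3 each).

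The treated H82 libraries were not alike. Replicate 1 stood apart in the spread of the log2 ratio between libraries over 1438 genes above 100 TPM. This spread, a median absolute deviation scaled to match an SD, was 0.621 to replicate 2 and 0.632 to replicate 3. Between those 2 it was 0.167. The measure leaves out any offset common to all genes. Replicate 1 had the highest *AMBN* of the treated H82 libraries, 0.416 TPM, against 0.775 TPM in the lowest untreated one. Replicate 2 differed in 2 genes that are high in H146 and were noticed after the values were seen. Its *INSM1* was 296 TPM against 32.1 and 33.9 TPM in the other 2, and *BARX1* was 12.7 TPM against 0.672 and 0.359 TPM. *DLX2*, which is also high in H146, was at 24.4 TPM in replicate 2 against 17.9 and 28.7 TPM. The *AMBN* level of replicate 2, 0.138 TPM, was the lowest of all 13 libraries. The cause of the higher *INSM1* and *BARX1* in replicate 2 was not tested. As the treated and untreated H82 groups did not overlap, leaving out replicate 1 or 2 could not make them overlap.

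*ENAM*, the gene next to *AMBN*, fell in both lines and had its highest level in untreated H82. The untreated H82 libraries had 3.62, 4.57 and 4.02 TPM and the treated ones 0.0366, 0.298 and 0.137 TPM. All treated H82 libraries were below 1 TPM, far from the untreated ones. The means were 4.07 ± 0.480 TPM and 0.157 ± 0.132 TPM (SD, n = 3 each), a 25.9-fold lower level under the drug. On the log2(TPM + 1) scale the change was -2.13 ± 0.19 (SE), with an adjusted p of 0.000263 (limma, two-sided, Benjamini-Hochberg over 19770 genes).

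*ENAM* was the 1 member that could be tested in this way in H82. It passed the filter of 1 TPM in 3 libraries only through its untreated libraries, which favoured a fall in advance. In the limma fit with no filter on low values its adjusted p was 0.00184. Of all genes tested in H82, 45.5% were lower and 13.1% higher, so a fall there was common. *ENAM* stood at place 2056 of 19770 when genes were ordered from the largest fall. The adjusted p was between 0.000189 and 0.0075 under every alternative fit, and the estimate was smallest, -0.997, with quantile normalization. With nothing added to the TPM the log2 ratio of the means was -4.69. Without treated replicate 1 the change was -2.06, and without treated replicate 2 it was -2.22.

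In H146, *ENAM* was below 1 TPM in every library. The untreated libraries had 0.799, 0.838 and 0.388 TPM and the treated ones 0.185, 0.098, 0.148 and 0.169 TPM. The groups did not overlap, as for 33.5% of the genes above 0 TPM in any H146 library, and *ENAM* thus moved opposite to *AMBN* in the same libraries. The means were 0.675 ± 0.249 TPM (SD, n = 3) and 0.150 ± 0.038 TPM (SD, n = 4). The difference of mean log2(TPM + 1) was -0.53, with p = 0.0286 in the two-sided exact permutation test, the smallest that 3 against 4 libraries allow. The fit of all genes with no filter gave an adjusted p of 0.0187, where 7.57% of genes were called lower.

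Ordered by level, untreated H82 was highest for *ENAM*, untreated H146 followed, and the treated libraries of the lines overlapped at the bottom. The fall was larger in H82 than in H146 on the log2(TPM + 1) scale, by 1.60 ± 0.21 (SE), with an adjusted p of 5.21e-05 for the interaction of line and treatment in limma over 13 libraries. Of the 23676 genes in that fit, 60.2% differed between the lines, so such a difference was the rule. With quantile normalization the interaction was 0.65 and its adjusted p was 0.0502. The lower starting level in H146 leaves less room on this scale, and without an added constant the log2 ratios of the means were -4.69 in H82 and -2.17 in H146.

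*AMTN*, the gene before *AMBN*, was near or at 0 in most libraries. In H82 it was listed at 0 in 5 libraries and at 0.395 TPM in untreated replicate 3, and the exact permutation test gave p = 1. In H146 the untreated libraries had 0.465, 0 and 0.168 TPM and the treated ones 0.742, 2.57, 0.517 and 0.193 TPM. The groups overlapped, and treated replicate 2, which had the highest *AMBN* level, also had the highest *AMTN* level. The difference of mean log2(TPM + 1) was 0.61, with p = 0.171 in the two-sided exact permutation test and an adjusted p of 0.288 in the limma fit with no filter.

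*ODAM* did not exceed 0.352 TPM in any library. In H82 it was listed at 0 in all libraries but untreated replicate 3, at 0.131 TPM, with an exact permutation p of 1. In H146 the untreated libraries had 0, 0 and 0.0559 TPM and the treated ones 0.352, 0.0682, 0.137 and 0.128 TPM. The treated libraries all lay above the untreated ones, but by amounts that may be a few reads. The groups also did not overlap for 33.5% of the genes above 0 TPM in any H146 library. The difference of mean log2(TPM + 1) was 0.20, with p = 0.0571 in the two-sided exact permutation test and an adjusted p of 0.15 in the limma fit with no filter.

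**Figure D2:**
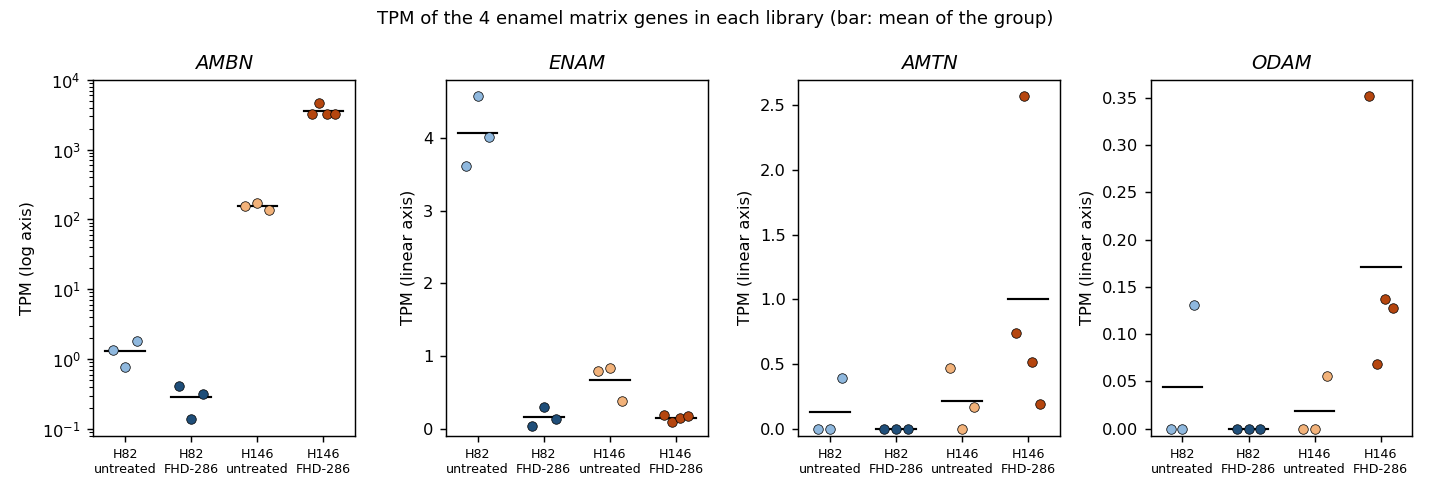
TPM of *AMBN* (log axis), *ENAM*, *AMTN* and *ODAM* (linear axes) in each library of the 4 groups. Points are libraries and bars are group means. Treated H146 sits at 3250 TPM or more for *AMBN*, while the highest points for *ENAM* are the untreated H82 libraries, at 3.62 to 4.57 TPM, and *AMTN* and *ODAM* stay under 2.6 and 0.36 TPM.

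A single group made up nearly all the RNA of these genes, which follows from the choice of *AMBN* for its level in that group. The 4 members summed to 3251 to 4628 TPM in treated H146, of which *AMTN*, *ENAM* and *ODAM* were at most a few TPM, and to 136 to 172 TPM in untreated H146. In H82 the sum was 4.95 to 6.38 TPM without the drug, mostly *ENAM*, and 0.436 to 0.454 TPM with it. The high level in treated H146 was thus a property of *AMBN* and was not shared by the genes on its sides.

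A list of neighbours from *SULT1B1* to *DCK*, made without a search for noncoding genes, held 22 other genes of the tables. Of these, 17 stayed below the filter of 1 TPM in 3 libraries in both lines, among them the casein, statherin, histatin and mucin genes between *SULT1B1* and *AMTN*, with no value above 1.52 TPM in H82 or 1.31 TPM in H146. *SMR3B*, a gene for a salivary protein, was at 0 in all libraries. The 5 other neighbours, all downstream of *ENAM*, were expressed in both lines. In H82 3 of them were called lower (45.5% of all genes tested) and none higher, and in H146 1 was called higher (32.5% of all genes tested) and none lower.

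*UTP3*, a gene for a ribosome biogenesis factor 96.3 kb from the start of *AMBN*, is the nearest expressed gene of that list other than the members. In H146 it was at 99.2 ± 7.47 TPM (SD, n = 3) untreated and 113 ± 30.2 TPM (SD, n = 4) treated, with an adjusted p of 0.615 (limma). In H82 it went from 83.5 to 51.6 TPM, with an adjusted p of 0.0488 that was lost in 9 alternative fits, those without treated replicate 2 and without any 1 untreated replicate among them.

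*RUFY3*, whose protein acts in organelle transport and neuronal polarity, fell in H82 from 32.3 to 12.2 TPM, a change of -1.33 ± 0.16 on the log2(TPM + 1) scale (SE, adjusted p 0.000596). In H146 it rose from 75.9 to 116 TPM, by 0.60 ± 0.12 (SE, adjusted p 0.00349), a call that was lost under median-of-ratios scaling (0.29, adjusted p 0.0677). *MOB1B*, a Hippo pathway adaptor gene, changed by -1.60 ± 0.21 in H82 (SE, adjusted p 0.000906) and had 13.5 and 17.2 TPM in untreated and treated H146 (adjusted p 0.094). None of these neighbours moved by as much as *AMBN* did in H146.

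**Figure D3:**
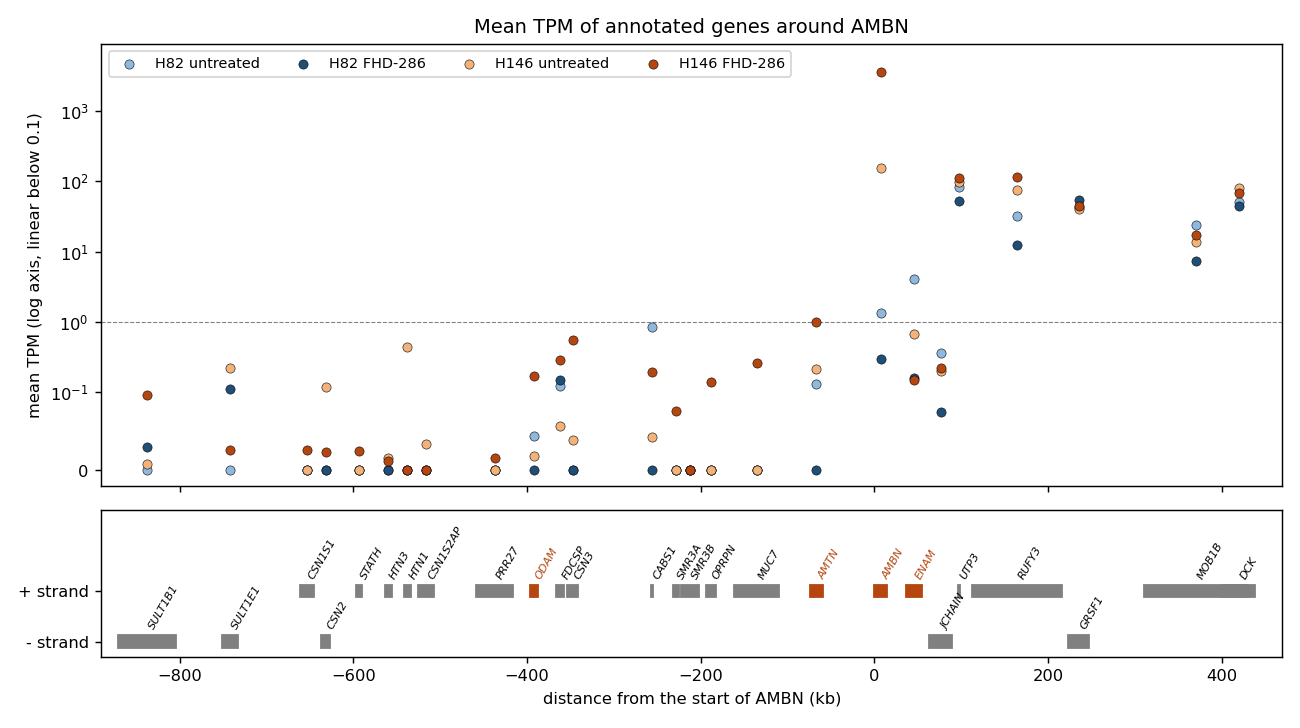
Mean TPM in each group of the listed genes around *AMBN*, by distance in kb from the start of *AMBN* (top). The TPM axis is log and linear below 0.1. Gene bodies are shown by strand (bottom, members in colour). In treated H146 *AMBN* stands at 3602 TPM, while the genes before it are at or below about 1 TPM and the genes from *UTP3* on lie between 7.26 and 116 TPM in all groups.

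The other genes of enamel formation and tooth development were taken from 4 lists of 64 genes in the tables. The lists were chosen with earlier results of these data known, so their counts beside the background are a description. In H82 35 of them were tested, of which 11 were lower (31.4%), 10 were higher (28.6%) and 14 did not pass. In H146 42 were tested, of which 13 were lower (31%), 14 were higher (33.3%) and 15 did not pass. The background was 45.5% lower and 13.1% higher in H82 and 15.5% lower and 32.5% higher in H146. The median log2 difference of the lists was -0.15 in H82 and 0.20 in H146, against -0.56 and 0.25 over all genes tested. With quantile normalization 7 were lower and 17 higher in H82, and without untreated replicate 3 9 were higher in H146.

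Of 6 other genes for enamel matrix proteins and their enzymes, 4 were below the filter in both lines. Amelogenin (*AMELX*), the main protein of the forming matrix, did not exceed 0.526 TPM in any library. The proteases that remove the matrix were as low, *MMP20* at no more than 0.0468 TPM and *KLK4* at no more than 0.857 TPM. The major partners of ameloblastin in enamel were therefore near or at the detection limit in the libraries where *AMBN* was most abundant.

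The other 2 genes of that list were both lower in H82, and 1 of them was lower in H146. *ACPT* (now *ACP4*), an acid phosphatase gene mutated in amelogenesis imperfecta, fell in H82 from 25.0 ± 2.05 to 1.09 ± 0.454 TPM (SD, n = 3 each), a change of -3.66 on the log2(TPM + 1) scale (adjusted p 0.000104, limma). In H146 it was at 3.41 and 4.13 TPM (adjusted p 0.856). *TUFT1*, the gene for tuftelin, fell in H146 from 84.6 to 31.1 TPM, a change of -1.42 ± 0.14 (SE, adjusted p 0.000139). Its change in H82, -0.74 (adjusted p 0.00286), was no longer called under median-of-ratios scaling (-0.27, adjusted p 0.124).

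Among genes for ion transport, secretion and processing in ameloblasts, 5 of 11 tested were lower and 1 higher in H82, and 4 of 12 were lower and 4 higher in H146. *SLC24A4*, a calcium exchanger gene of maturing enamel, fell in H82 from 7.10 ± 0.585 to 0.234 ± 0.028 TPM (SD, n = 3 each), a change of -2.71 on the log2(TPM + 1) scale (adjusted p 0.000128, limma). It was below 0.05 TPM in every H146 library. *FAM83H*, another gene mutated in amelogenesis imperfecta, rose in H146 from 41.9 ± 6.16 to 137 ± 59.1 TPM (SD), by 1.56 ± 0.37 (SE, adjusted p 0.00918).

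In the adhesion list 2 of 4 tested were lower and 1 higher in H82, and 4 of 9 were lower and 1 higher in H146. *GJA1*, the gene for the gap junction protein connexin 43, rose in both lines. Its mean went from 4.32 to 111 TPM in H82, by 4.36 ± 0.30 (SE, adjusted p 0.000136). In H146 it started at 2.56 TPM and reached 46.0 TPM, by 3.63 ± 0.30 (SE, adjusted p 6.42e-05). *COL17A1*, a hemidesmosome collagen gene, fell in H146 from 4.98 to 0.885 TPM, a change of -1.65 ± 0.19 (SE, adjusted p 0.000293).

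Of the tooth transcription factors, 8 of 18 tested were higher and 2 lower in H82, and 9 of 19 were higher and 4 lower in H146. Their median log2 difference was 0.46 in H82 and 0.59 in H146, against -0.56 and 0.25 for all genes. *DLX2*, a homeobox gene of the branchial arches, rose in H82 from 1.24 to 23.7 TPM, by 3.45 ± 0.24 (SE, adjusted p 0.000139). In H146 it was at 325 TPM untreated and 613 TPM treated, higher by 0.88 ± 0.19 (SE, adjusted p 0.00608). *DLX5*, a related gene, was among the most abundant transcripts of H146 with and without the drug, at 1090 ± 113 TPM (SD, n = 3) and 1165 ± 280 TPM (SD, n = 4), and its adjusted p there was 0.773. In H82 *DLX5* rose from 5.48 to 60.7 TPM (adjusted p 0.0019), with 31.2, 116 and 34.7 TPM in the treated libraries, the highest in replicate 2.

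*RUNX2*, a master gene of bone and tooth mineralization, fell in H82 from 11.8 to 1.52 TPM, a change of -2.36 ± 0.20 (SE, adjusted p 0.000222), and was below 0.04 TPM in all H146 libraries. *SATB1*, a chromatin organizer gene, rose in H146 from 6.86 to 21.2 TPM, by 1.52 ± 0.16 (SE, adjusted p 0.000235). In H82 *SATB1* had 3.69 and 4.66 TPM (adjusted p 0.259), and it was called higher there under median-of-ratios scaling (0.66, adjusted p 0.0218).

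**Figure D4:**
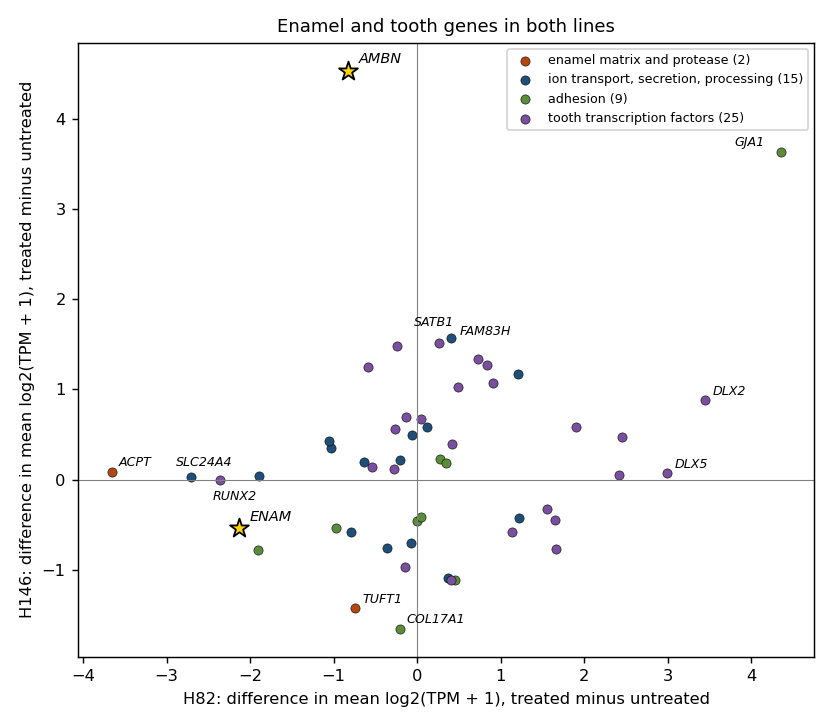
Treated minus untreated difference of mean log2(TPM + 1) in H82 (horizontal) and H146 (vertical) for each gene of the 4 lists tested in at least 1 line, with *AMBN* and *ENAM* as stars. *AMBN* is at -0.82 and 4.53, apart from the listed genes, of which *GJA1* at 4.36 and 3.63 is the one that is high in both lines.

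The relatives of the members for bone, dentin and matrix proteins, encoded elsewhere on chromosome 4 or on another chromosome, were mostly low. Of 7 such genes 2 were tested in H82 (1 lower) and 3 in H146 (1 lower, 1 higher). *SPARC*, from whose family the enamel genes are thought to descend, fell in H82 from 75.1 to 38.5 TPM, a change of -0.96 ± 0.16 (SE, adjusted p 0.00197). In H146 *SPARC* rose, with 11.4 TPM untreated and 21.4 TPM treated, by 0.86 ± 0.17 (SE, adjusted p 0.00404).

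Likeness to the pattern of *AMBN* was taken as Pearson's r of log2(TPM + 1) over the 13 libraries, which fall into 4 groups, so high values are common, and 663 of 23676 genes had an r above 0.95 with *AMBN*. The most alike were *KSR2* (0.996), *PLEKHG1* (0.995), *TRIM71* (0.994), *GPR149* (0.993) and *MAPK3* (0.993), with mean levels in treated H146 of 3.99, 27.2, 10.95, 8.02 and 101 TPM. None of these reached the level of *AMBN*. For *ENAM*, 321 genes had an r above 0.95, and *SMAD3* (0.992) and *GCC2* (0.989) were among the 5 most alike. The r between *AMBN* and *ENAM* was -0.48.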

How the data were processed

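RNA-seq was analysed in 13 libraries of H82 and H146 cells. The authors mapped reads to hg38 by STAR using GENCODE release 28, tested groups in DESeq2, and deposited 1 table of TPM per line. The submitters' processing notes also name Trim Galore 0.4.4. The strand setting and the gene lengths behind TPM are not given in the sources used here, and TPM keeps no read depth, so no counting interval was drawn.

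Each line was fitted in R 4.3.3 with limma 3.58.1 (lmFit, eBayes with a trend) on log2(TPM + 1), treated against untreated, for genes that reached 1 TPM in 3 libraries or more. A gene can pass this filter through 1 group alone, as *ENAM* did in H82, which favours a difference in that direction. This scale understates changes of low genes. Tests were two-sided, p-values were adjusted over every gene of a fit by Benjamini-Hochberg, and the threshold was 0.05. The lines were compared by the interaction of line and treatment. Members below the filter were compared by an exact permutation test. Alternatives were a pseudocount of 0.1, no filter, other scalings, no mitochondrial genes, no trend, a replicate block and leaving out each library. Averaging libraries that lay close together, and ratios with no pseudocount, were chosen after seeing the data. The fit was tested on simulated data.

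The members and gene lists were chosen with earlier results of these data known. The text names all members and their neighbours with a result, and, of each list, genes past the threshold from among the 6 with the largest change in a line, with the marker and enamel genes that describe a level. For likeness it names from the 5 genes with the highest r. Coordinates come from GENCODE release 44 on hg38 and promoters from RefSeq (GRCh38.p14), where all 4 members matched by symbol. Summaries used Python 3.11.15 with pandas 2.3.3 and numpy 2.4.6.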

Additional observations from a re-analysis of the deposited data

Results flagged for a closer look

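*AMBN* in treated H146 had 1 library far from the others. Replicate 2 was at 4626 TPM, and its gap to the next library was 0.984 of the range of the 4 libraries, a description only, since *AMBN* was picked for its level in these libraries. The same library had the highest *AMTN* (2.57 TPM) and *DLX5* (1567 TPM) of the treated H146 libraries, and the lowest *ENAM* (0.098 TPM). It also differed over 1776 genes above 100 TPM. Its spread of the log2 ratio (scaled median absolute deviation) was 0.546 to replicate 3, 0.586 to replicate 4 and 0.309 to replicate 1. For the other genes examined, no treated H146 library passed the critical value of 0.829 of Dixon's test, which chance passes in about 1 in 20 groups.

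*AMBN* moved in opposite directions in the lines. All treated H146 libraries were above the untreated ones, while in H82 the treated libraries were below the untreated ones with a log2 ratio of mean TPM of -2.18. This difference was not tested.

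The effect of FHD-286 differed between the lines, by the interaction in limma, for *ENAM* (H146 minus H82, 1.60 log2) and for 11 of the 13 other genes examined. The difference was positive for *ACPT* (3.75), *SLC24A4* (2.74), *RUNX2* (2.36), *RUFY3* (1.94), *MOB1B* (1.93), *SPARC* (1.82) and *SATB1* (1.25). It was negative for *DLX5* (-2.92), *DLX2* (-2.57), *COL17A1* (-1.44) and *TUFT1* (-0.68). Of all genes in that fit, 60.2% passed the same threshold. The 13 genes had been named after each passed the threshold in a line of these same data. Their share therefore cannot be compared with that of all genes.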

How the results depend on the processing

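Of the values and counts recomputed under the alternatives, 159 stayed as they were, which for a tested value means the same direction and side of the threshold and for a count of genes within 1.5 times, and no member changed direction. Single genes of the lists did change sign under another scaling. In H82 these included the called genes *DLX4* and *ITPR1*, lower in the reported fit and at 0.22 and 0.23 with quantile normalization. In H146 none was called, and *DLX5* went to -0.25, *ACPT* to -0.15 and *UTP3* to -0.17 with median of ratios. The *AMBN* difference in H146 was 4.21 under median-of-ratios scaling and 4.41 to 4.61 without any 1 library. The *ENAM* change in H82 was -4.69 as a log2 ratio of mean TPM, and -2.22 to -2.06 without any 1 library. The *ENAM* interaction lost its call with quantile normalization (0.65, adjusted p 0.0502), and the *AMBN* fall in H82 gained one in the limma fit with no filter (adjusted p 0.0452).

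Counts over all genes moved with scaling, which shifted the median log2 change from -0.56 to -0.14 (median of ratios) or 0.01 (quantile) in H82 and from 0.25 to -0.02 or 0.06 in H146. In H82 the quantile fit called 4859 genes lower and 5256 higher, and median of ratios called 4793 higher, against 8996 and 2588. In H146 median of ratios called 4917 lower and 4165 higher, against 3033 and 6356. Leaving out 1 library gave 7617 to 9955 lower and 1882 to 3820 higher in H82 and 2222 to 3741 lower and 4404 to 7561 higher in H146. In the enamel and tooth lists, quantile normalization gave 7 lower and 17 higher in H82. There, leaving out 1 library gave 9 to 12 lower and 8 to 12 higher, and in H146 11 to 16 lower and 9 to 16 higher, the 9 being without untreated replicate 3. The cause of these moves was not tested.

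Replicate numbers did not pair the libraries. Deviations of same-numbered libraries correlated between -0.11 and 0.03. With the replicate block the *ENAM* change in H82 was -2.13 (adjusted p 0.00133) and the *AMBN* difference in H146 was 4.57. In H146 the block in effect left out treated replicate 4, which has no untreated library of the same number.

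Untreated replicates 1 and 3 of H82 and treated replicates 3 and 4 of H146 were closer to each other than any other pair. Their spread of the log2 ratio (scaled median absolute deviation) over genes above 100 TPM was 0.0652 and 0.0992. Whether each pair is 1 library cannot be tested without counts. With each pair counted as 1 library *ENAM* changed by -2.17 in H82 (adjusted p 0.00128). With 3 or 4 libraries a group, and values under 1 TPM for *AMTN* and *ODAM* in most libraries, no change of these 2 genes was detected, which does not show that there was none.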
